A study of Mus musculus with 28 samples.

Results

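The DFMO by JMJD3 genotype interaction in induced regulatory T cells (iTreg) was the subject: the effect of DFMO in JMJD3-deficient cells minus its effect in wild-type cells, taken gene by gene. The contrast took 14 of the 28 libraries of the series. All 28 libraries entered the filter on low counts and the fit, which shared 1 estimate of the spread per gene. Of 20891 genes 10985 passed the filter and were tested. Mouse spleen CD4 T cells of the C57BL/6 strain were compared in 4 groups. These were iTreg with DFMO from JMJD3_KO mice (KO, n = 3), iTreg without DFMO (ctrl) from KO mice (n = 3), iTreg with DFMO from WT mice (n = 4), and iTreg ctrl from WT mice (n = 4). The KO mice carried floxed JMJD3 (gene Kdm6b) alleles and CD4cre, which acts in all cells that pass through a CD4-expressing stage, so the deletion is not limited to cultured iTreg. All 4 groups shared the rest of the culture. Sorted naive CD4 cells were activated by plate-bound anti-CD3 and anti-CD28 (1 µg/ml each) with TGF-beta 1 at 2 ng/ml, kept for 68 h with or without 100 µM DFMO, and sorted again as live cells before lysis. Each of 7 animals (3 KO, 4 WT) gave its own DFMO and ctrl culture, so the effect of DFMO could also be read per animal.

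DFMO (difluoromethylornithine) blocks ornithine decarboxylase, the enzyme that starts polyamine synthesis, and the polyamine spermidine in turn serves translation through the hypusine modification of a translation factor. JMJD3 removes methyl groups from lysine 27 of histone H3, a mark that Polycomb enzymes place on silent genes. TGF-beta drives naive CD4 cells to express Foxp3, the transcription factor that specifies regulatory T cells. The comparison asks whether the response to polyamine depletion depends on JMJD3, as a difference between 2 DFMO effects and not as either effect alone.

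Few single genes were called for a DFMO effect that differed between KO and WT cells. By edgeR's quasi-likelihood test, with p-values adjusted by the Benjamini-Hochberg method over all 10985 genes, 27 genes (0.246%) had an interaction at an adjusted p under 0.05. Of these 3 (0.0273%) were higher, meaning that the DFMO effect was more positive in KO than in WT, and 24 (0.218%) were lower. At an unadjusted p under 0.05 there were 1080 genes (9.83%), 504 higher and 576 lower. With 3 KO and 4 WT animals, the lack of a call does not show equal effects. The 3 higher genes were the interferon gamma receptor gene Ifngr1, the kinase gene Sgk1 and the tetraspanin gene Tspan9. The 24 lower genes included Rps2, Eif3f, Lsm4 and Polr2g, which serve translation, RNA processing or transcription, and Chac1, Ier2 and Bcl11b. Most of the lower genes followed 1 pattern: they were low in ctrl WT cells, rose there with DFMO, and were higher in ctrl KO cells than in ctrl WT cells. The split differed on length-scaled transcript abundances (TPM), which were also tested by another model (limma) and without the library scaling of the count fit. There 11 genes were higher and 8 lower, 8 of them shared with the 27. The median interaction of all genes stood at 0.10 on TPM, against 0.01 in the count fit. The part of unit, model and scaling in this was not tested.

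DFMO itself called 4181 genes in KO cells (38.1%; 2083 rose and 2098 fell) and 5214 in WT cells (47.5%; 2540 rose and 2674 fell). On TPM the split was 1345 rising and 2114 falling in KO, and 1314 rising and 3283 falling in WT. Both genotypes called 3433 genes, which was 82.1% of the KO list and 65.8% of the WT list, and 3429 of them moved the same way. Of these 3433 genes 11 also had a called interaction. The plot of both DFMO effects shows the genes scattered along the diagonal, with a Pearson r of 0.745 across all 10985 genes and 0.871 across the 8523 genes with a mean of at least 10 CPM (counts scaled to the library total) in an iTreg group. These correlations run across genes, which are not independent replicates. The median absolute log2 change of a gene was 0.451, 0.405 and 0.441 in the KO animals and 0.455, 0.402, 0.47 and 0.463 in the WT animals, so the sizes overlapped. The interaction had a median standard error of 0.26 on the log2 scale over all genes. The smallest called interaction was 0.67 in size, and 672 genes had an estimate above 1 in size, of which 21 were called.

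**Figure D1:**
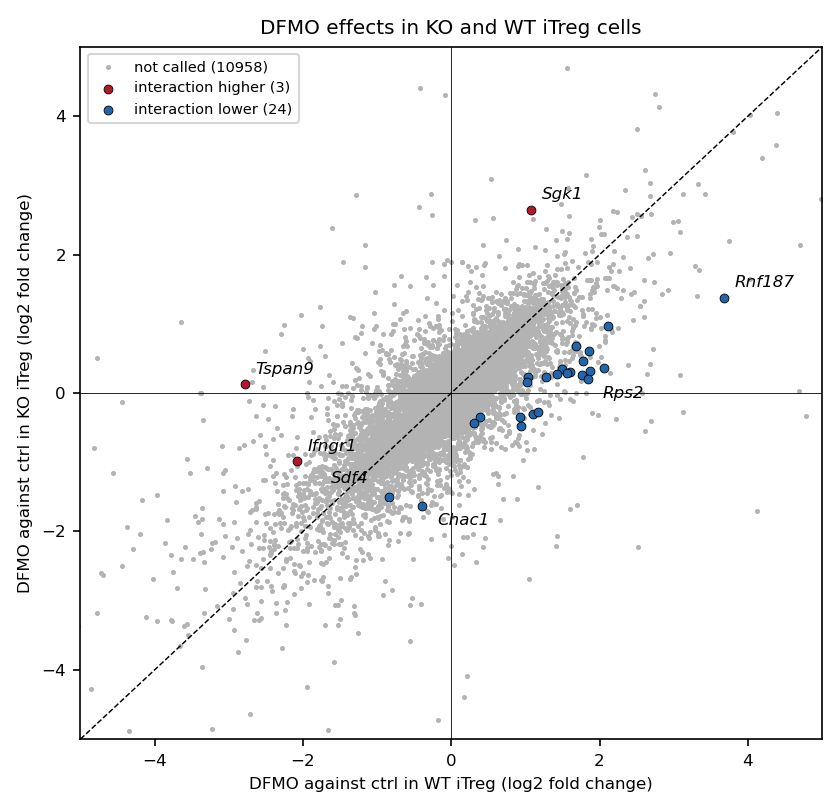
Log2 fold change of DFMO against ctrl in WT iTreg cells (x axis) and in KO iTreg cells (y axis) for each tested gene, with called interactions coloured and the dashed line marking equal effects. Called lower genes lie below the line, mostly where WT rose; the 3 called higher genes lie above it, and 26 genes beyond 5 on either axis are not drawn.

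Ifngr1 encodes the ligand-binding chain of the interferon gamma receptor, through which this cytokine of T helper 1 cells signals. Its level was 74.3, 75.2 and 58.1 CPM in DFMO KO libraries and 129.6, 157 and 125 CPM in ctrl KO libraries. It was 41.2, 43.9, 36.4 and 34.8 CPM in DFMO WT libraries and 172, 155, 189 and 146 CPM in ctrl WT libraries. DFMO libraries were low in both genotypes, WT ones lower than KO ones without overlap, and the ctrl libraries of the genotypes overlapped. The fall was 1.98-fold in KO (log2 -0.98 ± 0.12, SE) and 4.22-fold in WT (-2.08 ± 0.11), an interaction of 1.09 ± 0.16 (edgeR adjusted p = 0.0018). KO cells with DFMO held 1.77-fold the Ifngr1 level of WT cells with DFMO (0.82 ± 0.12, edgeR adjusted p = 5.05e-05), against a difference of -0.27 ± 0.11 in ctrl cells that did not pass (edgeR adjusted p = 0.16). It had the smallest interaction p of all genes, and it lies at chr10:19591949-19610229 on the plus strand (GRCm38, GENCODE M21).

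Sgk1 encodes a serine/threonine kinase that in mouse T cells has been tied to the balance of Th17 and regulatory cells through Foxo proteins. It had 114, 123 and 104 CPM in DFMO KO libraries and 11.6, 28 and 15.7 CPM in ctrl KO libraries. It had 99.5, 94.1, 116 and 126 CPM in DFMO WT libraries and 39.2, 61.5, 45.3 and 59.9 CPM in ctrl WT libraries. DFMO libraries of both genotypes overlapped, and the ctrl KO libraries lay below every ctrl WT library. Sgk1 rose 6.29-fold in KO (2.65 ± 0.21) and 2.12-fold in WT (1.08 ± 0.15), an interaction of 1.57 ± 0.26 (edgeR adjusted p = 0.00294). Without DFMO the KO level was 2.83-fold lower (-1.5 ± 0.21, edgeR adjusted p = 2.49e-05).

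Tspan9, a gene of the tetraspanin membrane proteins, was low throughout. It had 7.72, 8.35 and 6.45 CPM in DFMO KO libraries and 3.62, 6.58 and 10.4 CPM in ctrl KO libraries. It had 0.511, 0.594, 1.5 and 0.695 CPM in DFMO WT libraries and 7.99, 3.36, 6.84 and 5.23 CPM in ctrl WT libraries. The DFMO WT libraries stood apart, below all 10 others. The interaction was 2.91 ± 0.57 (edgeR adjusted p = 0.014), with a fall of 6.87-fold in WT (-2.78 ± 0.43) and no call in KO (0.13 ± 0.35). The call was lost without iTreg DFMO WT replicate 1 (2.71, edgeR adjusted p = 0.0666). It was kept in 4 of the 7 fits that left out both iTreg libraries of an animal. The next genes in this direction, not called, were Tmem251 (1.49 ± 0.36, edgeR adjusted p = 0.0725), whose product is a transmembrane protein, and Tasp1 (0.63 ± 0.15, edgeR adjusted p = 0.0725), which encodes the protease that cuts MLL proteins. With the animal as a block in the fit both passed (edgeR adjusted p = 0.0353 for Tmem251 and 0.0412 for Tasp1).

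**Figure D2:**
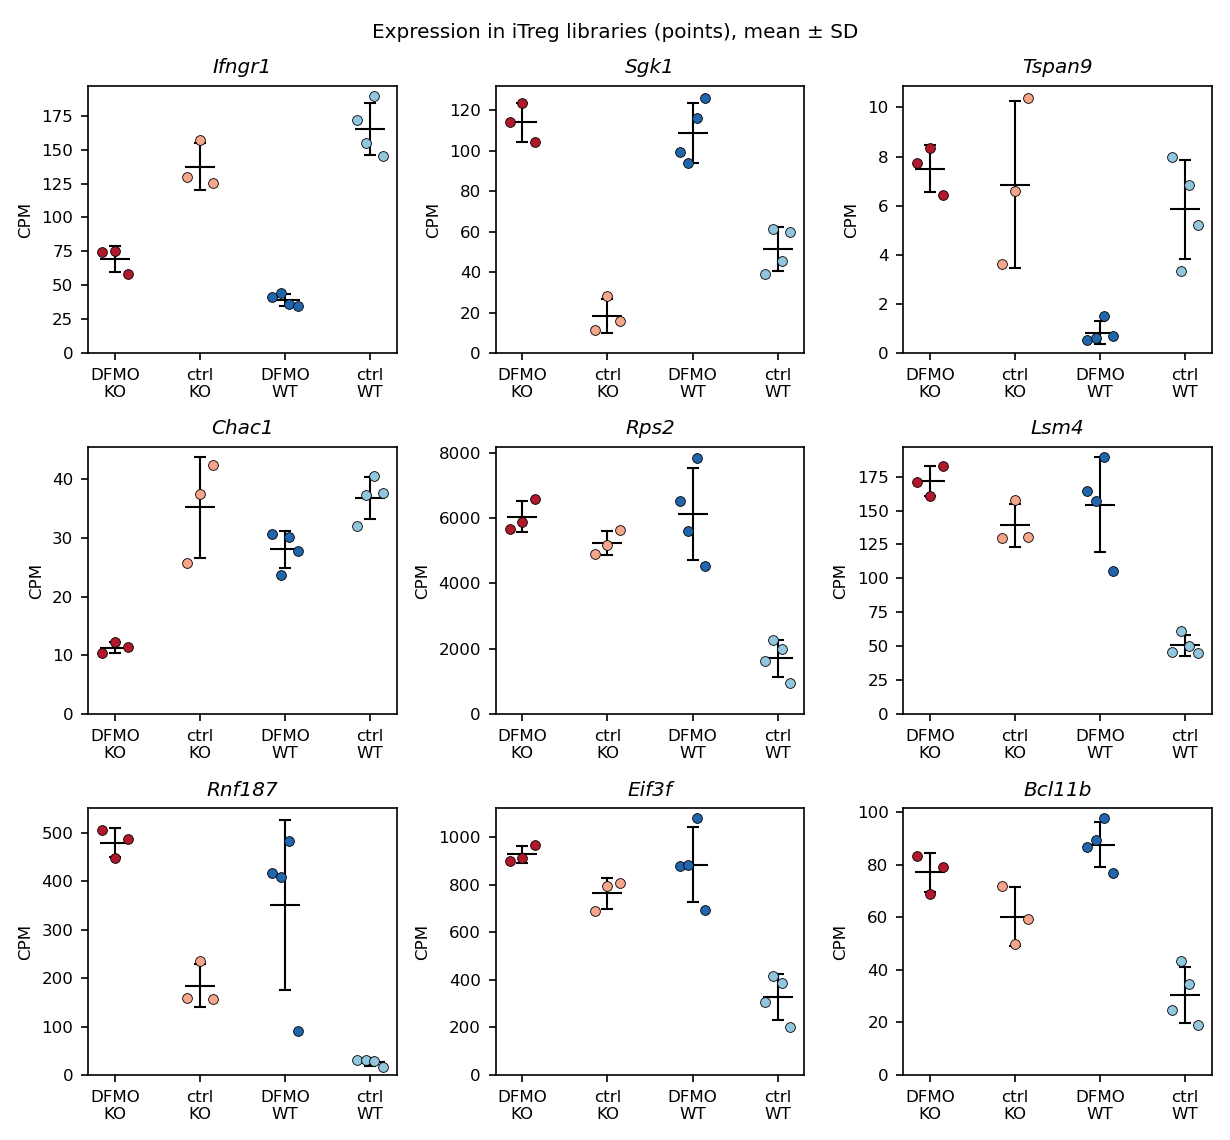
CPM of 9 called genes in the iTreg libraries, with each library as a point, the group mean as a bar and 1 SD as whiskers (n = 3 for KO, n = 4 for WT). In Rps2, Lsm4, Rnf187, Eif3f and Bcl11b the ctrl WT libraries sit lowest; in Chac1 the DFMO KO libraries do, in Tspan9 the DFMO WT libraries and in Sgk1 the ctrl KO libraries.

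Among the 24 lower genes, DFMO raised 22 in WT and lowered 2 (Chac1 and Sdf4). In KO it raised 5, lowered 4 and left 15 without a call. The median DFMO change of these genes was 0.25 in KO and 1.46 in WT, against -0.03 and -0.05 over all genes. Between ctrl cells of KO and WT 582 genes were called over the whole table (5.3%; 3.17% higher, 2.13% lower in KO), and of the 24 genes 21 were higher in KO and 0 lower, with a median difference of 1.12 against -0.01 over all genes. With DFMO 455 genes were called between the genotypes (4.14%; 1.91% higher, 2.23% lower in KO), and of the 24 genes 4 were lower in KO and 0 higher, with a median of -0.01 against 0.00. On TPM these 2 genotype lists split as 206 higher and 227 lower in ctrl, and 236 higher and 132 lower with DFMO. The ctrl libraries of KO and WT did not overlap in 22 of the 24 genes (all genes 15.5%), and the DFMO libraries in 5 (all genes 11.8%). In 16 of the 24 all 4 ctrl WT libraries lay below the 10 other iTreg libraries (all genes 2.36%). These 4 groups enter the interaction itself, so such counts describe the called genes and are not further tests. Fewer cells of a type and less RNA per cell cannot be told apart in these bulk samples.

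**Figure D3:**
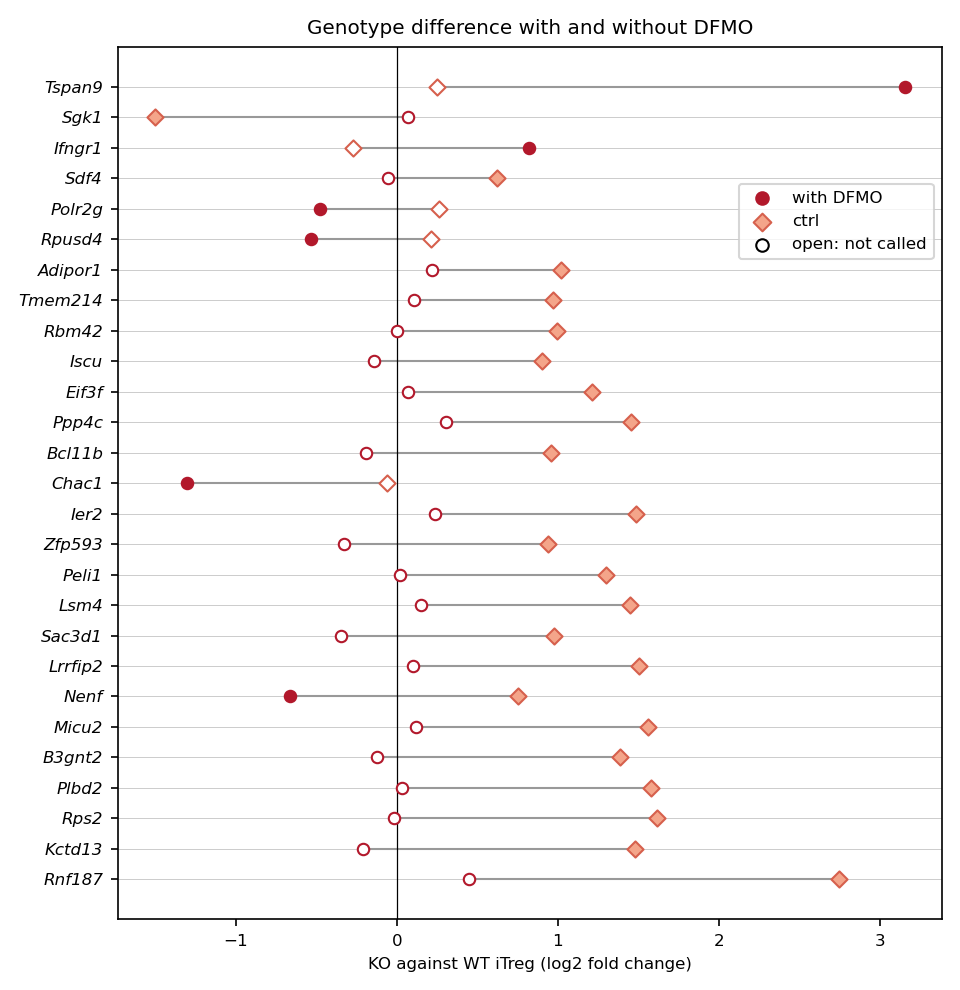
Log2 fold change of KO against WT iTreg cells with DFMO (circles) and in ctrl (diamonds) for the 27 called genes; filled symbols passed an edgeR adjusted p under 0.05. Most lower genes have a filled diamond right of 0 and an open circle near 0, while Chac1, Polr2g and Rpusd4 have a filled circle left of 0 and an open diamond.

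Rps2, one of the lower genes, encodes a protein of the small ribosomal subunit. Its level was 5668, 5884 and 6574 CPM in DFMO KO libraries and 4904, 5178 and 5629 CPM in ctrl KO libraries. It was 6516, 5618, 7835 and 4525 CPM in DFMO WT libraries and 1621, 2270.4, 1983 and 961 CPM in ctrl WT libraries. All ctrl WT libraries lay below the 10 others, and the DFMO libraries of the genotypes overlapped. Rps2 rose 3.58-fold in WT (1.84 ± 0.18) and was not called in KO (0.21 ± 0.20), an interaction of -1.63 ± 0.27 (edgeR adjusted p = 0.00294). Rps2 has near-identical pseudogene copies, 1 of which (Rps2-ps6) is in the table, so the share of reads assigned to it is uncertain. Eif3f, a subunit of translation initiation factor eIF3, averaged 928 ± 36.5 CPM in DFMO KO and 763 ± 64.5 CPM in ctrl KO cells (SD, n = 3), against 884 ± 158 CPM in DFMO WT and 328 ± 95.5 CPM in ctrl WT cells (SD, n = 4). Its interaction was -1.14 ± 0.24 (edgeR adjusted p = 0.0269), and the call held in 6 of the 14 fits that left out 1 library. Zfp593, a zinc finger gene, had -1.27 ± 0.23 (edgeR adjusted p = 0.00472).

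Lsm4 belongs to the Lsm rings that act in splicing and mRNA decay. Its level was 171, 161 and 183 CPM in DFMO KO libraries and 130, 158 and 130.2 CPM in ctrl KO libraries, against 165, 157, 189 and 106 CPM in DFMO WT libraries and 45.8, 61.3, 50.3 and 44.9 CPM in ctrl WT libraries. The ctrl WT libraries lay below the 10 others. DFMO KO libraries lay above ctrl KO libraries, and DFMO WT libraries overlapped with both. It rose 3.04-fold in WT (1.6 ± 0.14) and was not called in KO (0.30 ± 0.15), an interaction of -1.3 ± 0.20 (edgeR adjusted p = 0.00284). Rbm42, an RNA-binding protein gene, rose in both genotypes, by 0.68 ± 0.16 in KO and 1.68 ± 0.14 in WT (interaction -1.0 ± 0.22, edgeR adjusted p = 0.0314), with the call kept in 6 of 14 such fits. Polr2g, a subunit of RNA polymerase II, had 98.9, 99.1 and 111 CPM in DFMO KO libraries and 140.1, 112 and 141 CPM in ctrl KO libraries, against 145, 116, 161 and 152 CPM in DFMO WT libraries and 112, 101, 104 and 122 CPM in ctrl WT libraries. The genotypes did not overlap with DFMO and overlapped without it. Polr2g moved in opposite directions: it fell in KO (-0.35 ± 0.11, edgeR adjusted p = 0.014) and rose in WT (0.39 ± 0.10, edgeR adjusted p = 0.00124), an interaction of -0.74 ± 0.15 (edgeR adjusted p = 0.0149) that was kept in 9 of 14 such fits.

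Rnf187, a ubiquitin ligase gene, had 505, 447 and 486 CPM in DFMO KO libraries and 159.7, 236 and 158 CPM in ctrl KO libraries. It had 416, 408, 483 and 91.8 CPM in DFMO WT libraries and 30.3, 31.4, 29.7 and 16 CPM in ctrl WT libraries. DFMO WT replicate 4 lay far below the other DFMO WT libraries, and all ctrl WT libraries lay below all others. Rnf187 rose 2.6-fold in KO and 12.8-fold in WT, and its interaction was the largest in size of the 24 (-2.3 ± 0.40, edgeR adjusted p = 0.00428). Kctd13, an adaptor of cullin ubiquitin ligases, rose 4.16-fold in WT (2.06 ± 0.22) and was not called in KO (0.37 ± 0.23), an interaction of -1.69 ± 0.32 (edgeR adjusted p = 0.0108). Peli1, a ubiquitin ligase gene that restrains T cell activation in mice, averaged 88.1 ± 5.38 CPM in DFMO KO and 112 ± 9.93 CPM in ctrl KO (SD, n = 3), against 86.6 ± 20.9 CPM in DFMO WT and 44.6 ± 19.3 CPM in ctrl WT (SD, n = 4; interaction -1.28 ± 0.28, edgeR adjusted p = 0.0314, kept in 4 of 14 fits without 1 library). Ppp4c, the catalytic subunit of protein phosphatase 4, rose by 0.97 ± 0.17 in KO and 2.12 ± 0.16 in WT (interaction -1.15 ± 0.23, edgeR adjusted p = 0.0164, kept in 9 of 14 such fits). Ier2, an immediate early gene, rose by 0.61 ± 0.18 in KO and 1.86 ± 0.17 in WT (interaction -1.25 ± 0.25, edgeR adjusted p = 0.0149). Its call was lost without iTreg DFMO KO replicate 2 (-1.22, edgeR adjusted p = 0.056). The Ier2 call was kept in 2 of the 7 fits that left out both iTreg libraries of an animal. It was also lost with a correction for GC content (edgeR adjusted p = 0.0523) and on TPM (limma adjusted p = 0.103). Dusp2, a phosphatase gene of activated lymphocytes, had -1.41 ± 0.39 and did not pass (edgeR adjusted p = 0.127).

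Bcl11b, a transcription factor that commits and maintains T cells, had 83.5, 68.8 and 79.3 CPM in DFMO KO libraries and 72, 49.8 and 59.2 CPM in ctrl KO libraries. It had 86.9, 89.4, 97.7 and 76.8 CPM in DFMO WT libraries and 24.7, 43.5, 34.5 and 19.2 CPM in ctrl WT libraries. The ctrl WT libraries were the lowest without overlap. It rose 2.82-fold in WT (1.5 ± 0.16) and was not called in KO (0.35 ± 0.18), an interaction of -1.15 ± 0.24 (edgeR adjusted p = 0.0246) that was kept in 9 of the 14 fits without 1 library. Among the other lower genes were Iscu (interaction -1.05 ± 0.19), a scaffold of iron-sulfur cluster assembly, Micu2 (-1.44 ± 0.30), a regulator of mitochondrial calcium uptake, Adipor1 (-0.80 ± 0.17), an adiponectin receptor, and Rpusd4 (-0.75 ± 0.17), a mitochondrial pseudouridine synthase. Others were B3gnt2 (-1.51 ± 0.25), which extends N-acetyllactosamine chains, Plbd2 (-1.54 ± 0.27), Tmem214 (-0.86 ± 0.17) and Sdf4 (-0.67 ± 0.14), a calcium-binding protein of the Golgi. Sac3d1 (-1.32 ± 0.23), Nenf (-1.42 ± 0.25), which encodes the secreted protein neudesin, and Lrrfip2 (-1.41 ± 0.29) complete the 24. The edgeR adjusted p of these 11 genes ran from 0.00294 to 0.0436. In the 14 fits without 1 library the call was kept 4 times for Adipor1, 5 times for Lrrfip2 and Rpusd4, 6 times for Sdf4 and 8 times for Micu2, and in all 14 for the other 6 of these genes.

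Some of the called genes followed other patterns. Sdf4 fell 2.85-fold in KO and 1.79-fold in WT. Its ctrl KO libraries (1067, 922 and 1025 CPM) stood above its ctrl WT libraries (726, 540.3, 624 and 727 CPM), while the DFMO libraries of the genotypes overlapped. Nenf was lower in KO with DFMO (-0.66 ± 0.18, edgeR adjusted p = 0.0254) and higher in KO without it (0.75 ± 0.18, edgeR adjusted p = 0.0107). Chac1 encodes an enzyme that degrades glutathione and is a target of the stress factor ATF4. It had 10.4, 12.2 and 11.4 CPM in DFMO KO libraries and 25.7, 37.4 and 42.5 CPM in ctrl KO libraries. It had 30.7, 23.8, 30.1 and 27.8 CPM in DFMO WT libraries and 32, 37.4, 40.5 and 37.6 CPM in ctrl WT libraries. The DFMO KO libraries lay below all others, and ctrl libraries of the genotypes overlapped. Chac1 fell 3.1-fold in KO (-1.63 ± 0.18) and 1.31-fold in WT (-0.39 ± 0.14), an interaction of -1.24 ± 0.23 (edgeR adjusted p = 0.0086) that was lost without iTreg ctrl KO replicate 3 (-1.07, edgeR adjusted p = 0.0594). The Chac1 call was kept in 4 of the 7 fits that left out both iTreg libraries of an animal. It was lost on TPM (limma adjusted p = 0.0641) and with the 14 iTreg libraries fitted alone (edgeR adjusted p = 0.0789).

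**Figure D4:**
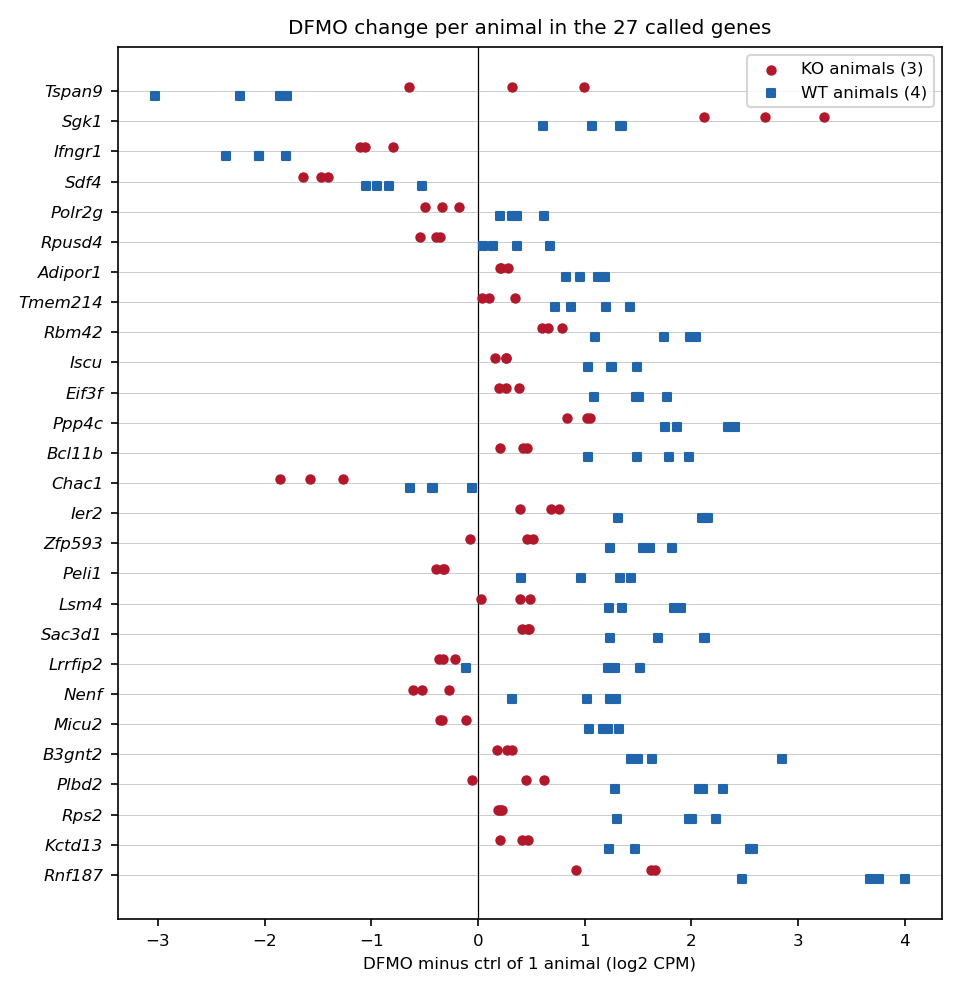
DFMO minus ctrl in log2 CPM for each animal in the 27 called genes, with 3 KO animals as circles and 4 WT animals as squares. In every gene shown, chosen by the interaction in these same libraries, the KO and WT animals do not overlap. In most lower genes the KO points lie near 0 and the WT points above them.

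The difference per animal, DFMO minus ctrl in log2 CPM, separated the genotypes in 27 of 27 called genes (all genes 12.4%). These differences come from the same libraries as the interaction that chose the 27. The separation therefore describes the called genes and is not a further test. For Rps2 the KO animals gave 0.21, 0.18 and 0.22, and the WT animals 2.01, 1.31, 1.98 and 2.23. For Ifngr1 they were -0.80, -1.06 and -1.1 in KO and -2.05, -1.8, -2.36 and -2.05 in WT. In Lrrfip2 the WT animals gave 1.52, 1.22, 1.28 and -0.11, and WT animal 4 lay close to the KO animals (-0.22, -0.36 and -0.33). With the animal as a block in the fit 57 genes were called (7 higher, 50 lower), among them all 27. The genes that the block added include Lag3, an inhibitory receptor of regulatory and activated T cells (-1.06, edgeR adjusted p = 0.0397), and Cd200, an inhibitory ligand (-0.52, edgeR adjusted p = 0.0438). Cd200 was picked after its value was seen.

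Promoter sequences are shown for Ifngr1, which has the smallest p, for Rps2 as a gene of the main pattern, and for Chac1, which differed under DFMO (RefSeq, GRCm38.p6, 250 bases before to 50 after the start, plus strand). Capitals mark matches, on either strand, to the GC box GGGCGG, the ETS core CCGGAAG, the E-box CACGTG and the ATF4 composite element TGATGNAA; matches may overlap.
Ifngr1, chr10:19591699-19591998: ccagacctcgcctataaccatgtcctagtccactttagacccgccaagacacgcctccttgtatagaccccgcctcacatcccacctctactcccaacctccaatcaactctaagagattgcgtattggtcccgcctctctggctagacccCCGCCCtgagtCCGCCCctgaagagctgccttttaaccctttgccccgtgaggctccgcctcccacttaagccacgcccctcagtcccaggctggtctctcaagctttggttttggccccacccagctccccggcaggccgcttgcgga
Rps2, chr17:24719813-24720112: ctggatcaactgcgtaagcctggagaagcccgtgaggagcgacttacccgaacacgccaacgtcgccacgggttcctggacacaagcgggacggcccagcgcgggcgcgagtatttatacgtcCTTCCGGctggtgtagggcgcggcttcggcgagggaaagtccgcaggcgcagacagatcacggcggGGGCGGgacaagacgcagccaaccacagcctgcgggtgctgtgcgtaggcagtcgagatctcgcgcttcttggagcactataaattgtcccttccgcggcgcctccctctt
Chac1, chr2:119350992-119351291: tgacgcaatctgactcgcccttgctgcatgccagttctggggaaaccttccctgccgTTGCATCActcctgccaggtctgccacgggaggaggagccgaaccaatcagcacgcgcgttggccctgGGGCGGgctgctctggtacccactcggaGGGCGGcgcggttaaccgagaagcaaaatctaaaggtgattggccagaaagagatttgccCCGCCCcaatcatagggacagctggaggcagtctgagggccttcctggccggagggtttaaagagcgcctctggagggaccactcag

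Of the 24 lower genes 13 had exactly 1 RefSeq promoter window. A GC box was in 10 of these (76.9%), against 66.0% of 6907 genes with 1 window, an ETS core in 3 (23.1%, against 20.4%) and an E-box in 2 (15.4%, against 10.3%). The ATF4 composite element was in 1 of them, Chac1 (7.7%, against 2.4%). Such matches are a description of letters, not of binding. The transcript GC content of the 24 had a median of 53.6% (39.2% to 63.5%), against 49.5% over all genes, and 19 of 24 lay above that. Their transcripts had a median length of 1966 bases against 3405. Over all genes the interaction had a median of 0.14 in the fifth of lowest GC content and -0.07 in the fifth of highest, which held 11 of the 24. With a GC correction 28 genes were called (4 higher, 24 lower), 23 of them shared with the 27. Between the genotypes in ctrl it called 590 genes, 459 of them shared with the 582 called without it.

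The targeted gene and the polyamine pathway were read as well. Kdm6b had 26.1, 19.9 and 27.7 CPM in DFMO KO libraries and 31.1, 33.3 and 29.1 CPM in ctrl KO libraries, against 41.9, 45.4, 59.2 and 49.7 CPM in DFMO WT libraries and 38, 48.8, 45 and 41.5 CPM in ctrl WT libraries. All KO libraries lay below all WT libraries, and the interaction did not pass (-0.53 ± 0.29, edgeR adjusted p = 0.574). These are counts over the whole gene and do not resolve the deleted exons. Kdm6a, which encodes the related demethylase UTX, had an interaction of 0.00 ± 0.24, and of 22 JmjC demethylase genes 0 were called. Odc1, which encodes the enzyme that DFMO blocks, had 0.05 ± 0.22. Srm, the spermidine synthase gene, rose 5.61-fold in KO and 8.33-fold in WT (interaction -0.57 ± 0.24, edgeR adjusted p = 0.397). Of 19 polyamine genes 0 had a called interaction and their median was -0.03, against 0.01 over all genes. DFMO raised 6 and lowered 5 of them in KO, where 19% of all genes rose and 19.1% fell. In WT it raised 10 and lowered 5 of the 19, where 23.1% of all genes rose and 24.3% fell.

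Regulatory T cell genes had no called interaction, 0 of 23, with a median of 0.01. Foxp3 had 382, 355 and 318 CPM in DFMO KO libraries and 259, 343 and 314 CPM in ctrl KO libraries. It had 189.7, 219, 213 and 309 CPM in DFMO WT libraries and 216, 339, 236 and 335 CPM in ctrl WT libraries. With DFMO every KO library lay above every WT library, and without it they overlapped. The interaction was 0.48 ± 0.24 (edgeR adjusted p = 0.53), while KO exceeded WT under DFMO by 0.60 ± 0.17 (edgeR adjusted p = 0.041). Il2ra, the high-affinity chain of the interleukin 2 receptor, had an interaction of 0.27 ± 0.13. The inhibitory receptor Ctla4 fell in both genotypes (-1.88 ± 0.16 in KO, -2.09 ± 0.13 in WT) and had 0.21 ± 0.21. Lag3 fell 4.92-fold in KO and 2.31-fold in WT. Its interaction of -1.09 ± 0.26 did not pass by edgeR without the block (adjusted p = 0.0589). By DESeq2, an alternative test, it passed (adjusted p = 0.00439).

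T helper lists had 0 called members each: 17 Th1 genes (median -0.39, 13 of them negative), 19 Th17 genes (median -0.09) and 8 Th2 and Th9 genes (median -0.25). Over all genes the median was 0.01 and 47.8% were negative. The filter ran over all 8 groups, so a member could pass it without iTreg reads. Il22 was at 0 in all iTreg libraries. Ifng was at 0 in all KO libraries, and Il17a was above 0 only in ctrl WT (mean 0.247 CPM). The interactions of these 3 genes cannot be estimated, yet they enter the medians and counts. Il9, which encodes interleukin 9, rose 12-fold in KO and 20.8-fold in WT, with an interaction of -0.80 ± 0.68. Tbx21, which encodes the Th1 factor T-bet, had 5.05, 5.19 and 3.99 CPM in DFMO KO libraries and 5.07, 4.52 and 8.03 CPM in ctrl KO libraries. It had 139, 83.1, 162 and 119 CPM in DFMO WT libraries and 37.8, 34.6, 44.5 and 8.71 CPM in ctrl WT libraries. WT libraries were higher in both cultures and highest with DFMO, ctrl WT replicate 4 lay close to the KO libraries, and the interaction had a large error (-2.29 ± 0.98, edgeR adjusted p = 0.417). Il12rb1, a chain of the interleukin 12 receptor, rose in WT (0.70 ± 0.10) and was not called in KO (0.06 ± 0.13). Its interaction of -0.64 ± 0.16 did not pass by edgeR (adjusted p = 0.0838) and passed by DESeq2 (adjusted p = 0.0224). Of 17 Th1 genes 11 were lower and 0 higher in KO with DFMO, where 2.23% of all genes were lower and 1.91% higher. Without DFMO 6 were lower and 1 higher in KO, against 2.13% and 3.17% of all genes. The 6 NK cell markers also had lower sums in KO, 1.2 to 2.78 CPM in DFMO KO and 0.673 to 1.66 CPM in ctrl KO libraries, against 5.73 to 10.9 CPM in DFMO WT and 3.05 to 6.9 CPM in ctrl WT libraries (Ncr1 and Klrb1c were at 0). The sums do not hold for each marker. Of the 3 tested, 1 was called lower and 0 higher in KO, with DFMO and in ctrl alike. With DFMO the median KO against WT difference of the 3 was 3.56. Klrd1, near the floor, had 0.297 to 0.451 CPM in DFMO KO libraries and 0 in all DFMO WT libraries. The part of these markers in the Th1 counts was not tested.

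Stress and growth lists were described in the same way. Over all genes the median interaction was 0.01, with 5728 positive and 5254 negative. Members of a list share the libraries, so such sign counts are not separate observations. In the ATF4 stress response 1 of 25 was called (Chac1, lower), against 0.218% of all genes called lower. The median of the 25 was -0.23, and 17 were negative. With DFMO 11 of these genes were lower and 0 higher in KO than in WT (2.23% and 1.91% of all genes). In ctrl cells 3 were lower and 1 higher in KO (2.13% and 3.17% of all genes), and the difference between these counts was not tested. Atf3, a stress-induced transcription factor, had 7.13, 12.2 and 11.7 CPM in DFMO KO libraries and 11.9, 11.9 and 12 CPM in ctrl KO libraries, against 36.8, 28.2, 38.2 and 44.8 CPM in DFMO WT libraries and 16.2, 18.8, 22.1 and 22.3 CPM in ctrl WT libraries. The DFMO WT libraries were the highest without overlap. Atf3 rose with DFMO in WT (0.90 ± 0.15) and was not called in KO (-0.20 ± 0.22). Its interaction of -1.1 ± 0.27 did not pass by edgeR (adjusted p = 0.0726) and passed by DESeq2 (adjusted p = 0.0174). Of 26 immediate early genes 1 was called (Ier2, lower), against 0.218% of all genes, with a median of -0.17 and 19 negative. In the ribosome biogenesis list 0 of 29 were called, with a median of 0.17 and 24 positive. DFMO raised 26 of the 29 in KO (19% of all genes) and 27 in WT (23.1% of all genes). Nop58, a nucleolar protein gene, rose by 1.15 in KO and 0.73 in WT (interaction 0.42 ± 0.12, edgeR adjusted p = 0.148), and Fbl, the nucleolar methyltransferase fibrillarin, by 1.49 in KO and 2.32 in WT (interaction -0.83 ± 0.30, edgeR adjusted p = 0.321).

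Mitochondrially encoded genes leaned one way. The 13 genes were all positive with a median interaction of 0.61, and 0 were called. DFMO raised 8 of them and lowered 0 in KO (19% and 19.1% of all genes). In WT it raised 3 and lowered 2 of the 13 (23.1% and 24.3% of all genes). Their summed level was 9462 to 16689 CPM in DFMO KO and 6747 to 11286 CPM in ctrl KO libraries, against 9055 to 16363 CPM in DFMO WT and 9212 to 13536 CPM in ctrl WT libraries, so the groups overlapped. The 13 share the libraries and are not separate observations. Of 25 G2 and M phase genes 23 were positive (median 0.11), of 23 cholesterol synthesis genes 18 (median 0.22), and of 26 interferon-stimulated genes 9 (median -0.27), with 0 called in each. Over all genes 5728 were positive and 5254 negative (median 0.01), and members of these lists also share the libraries. Of 20 genes of the IL-2 and STAT5 response 0 were called. Bcl2, the survival factor gene, fell with DFMO in WT (-0.57 ± 0.09) and was not called in KO (0.01 ± 0.11). Its interaction of 0.58 ± 0.14 did not pass by edgeR (adjusted p = 0.0726) and passed by DESeq2 (adjusted p = 0.00886). The other 12 lists, among them DNA replication, glycolysis, oxidative phosphorylation, heat shock and MHC class II, had 0 called members and medians between -0.23 and 0.13. H2-Ab1, an MHC class II gene, had an estimate of 0.99 ± 0.30 (edgeR adjusted p = 0.172).

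The same interaction in non-pathogenic Th17 cells (Th17n) of the same 7 animals called 36 genes (0.328%). With iTreg it shared 14, which was 51.9% of the iTreg list and 38.9% of the Th17n list. The libraries are separate but the animals are the same, so the lists are not independent. Of the 27 iTreg genes 26 had the same sign in Th17n. The share of all genes with the same sign was not counted, so this number has no baseline. The 24 lower ones had a median of -1.07 in Th17n, against 0.02 over all genes. In Th17n cells with DFMO 1 of the 24 was called between the genotypes (all genes 1.02%), and in Th17n ctrl cells 17 of the 24 were higher in KO (all genes 2.29%). For Rps2 the interaction was -1.63 ± 0.27 in iTreg and -1.49 ± 0.27 in Th17n, for Lsm4 -1.3 ± 0.20 in iTreg and -1.34 ± 0.20 in Th17n. Other genes were called in iTreg and had smaller estimates in Th17n. Sgk1 had 1.57 ± 0.26 in iTreg and 0.06 ± 0.23 in Th17n, and Tspan9 had 2.91 ± 0.57 in iTreg and 0.22 ± 0.44 in Th17n. Chac1 had -1.24 ± 0.23 in iTreg and -0.21 ± 0.23 in Th17n, and Polr2g had -0.74 ± 0.15 in iTreg and 0.15 ± 0.15 in Th17n. The difference between the cell types was tested as a term of its own, and 0 of 10985 genes (0%) passed in edgeR. Without adjustment 430 had a p under 0.05, and DESeq2 called 3 and limma on TPM 1. For Sgk1 that difference was 1.51 ± 0.35 (unadjusted p = 1.53e-04, edgeR adjusted p = 0.558), so no gene can be called particular to iTreg by this test.

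Single libraries weighed on the count of 27. Total estimated counts were 3406287 to 4528484 in DFMO KO, 2312481 to 2911716 in ctrl KO, 3233025 to 4066614 in DFMO WT and 2792847 to 4753768 in ctrl WT libraries, and the first principal component (44.4% of variance) separated DFMO from ctrl. DFMO WT replicate 4 was the lowest DFMO WT library in 17 of the 24 lower genes (24.4% of all genes), with a median of -0.47 log2 against the mean of the others. The ctrl WT replicate 4 was the lowest ctrl WT library in 16 (30.6% of all genes). The count was 99 without DFMO WT replicate 4, 67 without ctrl WT replicate 2, 46 without DFMO WT replicate 2 and 41 without ctrl WT replicate 4. It was 17 without ctrl KO replicate 3 and 16 without DFMO WT replicate 3. In all 14 fits that left out 1 library, 13 genes kept their call: Ifngr1, Sgk1, Lsm4, Rps2, B3gnt2, Sac3d1, Plbd2, Rnf187, Nenf, Zfp593, Iscu, Kctd13 and Tmem214. The 14 others kept it in 4 to 13 of the 14 fits, fewest for Adipor1 and Peli1. Leaving out both iTreg libraries of an animal, 6 genes kept their call in all 7 fits, namely Ifngr1, Sgk1, Lsm4, Rps2, B3gnt2 and Sac3d1. Plbd2, Rnf187, Nenf, Zfp593 and Iscu kept it in 6 of these 7 fits, Tmem214 in 4 and Kctd13 in 2. The interaction count was 12, 13 and 12 without KO animals 1, 2 and 3. It was 12, 79, 13 and 106 without WT animals 1, 2, 3 and 4. Of the genotype comparisons, the count with DFMO (455) was 263 without DFMO KO replicate 1, 281 without DFMO KO replicate 2, 290 without DFMO WT replicate 1, 727 without DFMO WT replicate 2 and 284 without DFMO WT replicate 3. The count in ctrl (582) was 280 without ctrl KO replicate 1, 285 without ctrl KO replicate 3, 383 without ctrl WT replicate 1 and 356 without ctrl WT replicate 3.

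T cell markers summed to 3570.5 to 3921 CPM in DFMO KO, 3611 to 4012 CPM in ctrl KO, 3046 to 3990.4 CPM in DFMO WT and 3177 to 3763 CPM in ctrl WT libraries, and 0 of 9 had a called interaction. The 7 B cell markers summed to 15.7 to 22.7 CPM in DFMO KO, 14.9 to 15.8 CPM in ctrl KO, 8.59 to 14.3 CPM in DFMO WT and 6.8 to 16.3 CPM in ctrl WT libraries. The part of these levels in the interaction calls was not tested. Macrophage and dendritic cell markers summed to at most 18.3 CPM in a library, and neutrophil, mast cell and erythroid markers to at most 2.79 CPM. At 0 in all 14 libraries were Itgax, Cd209a, S100a9, Elane, Retnlg, Cpa3, Mcpt8, Mcpt4, Cma1, Fcer1a, Hba-a1 and Hba-a2. The 2 CD8 markers summed to 18.1 to 24.7 CPM in DFMO KO, 18.4 to 24.4 CPM in ctrl KO, 12.9 to 20.5 CPM in DFMO WT and 18.6 to 25.4 CPM in ctrl WT libraries.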

How the data were processed

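RNA was measured in 14 iTreg libraries, within a series of 28, by full-length sequencing of cells from 7 mice, each of which gave 4 libraries. The authors deposited estimated counts and TPM per gene. The submitters' processing notes name kallisto and GRCm38, with no role; its version and the annotation are not given in the sources used here. The deposited TPM values were scaled by the authors' software for transcript length, and the estimated counts were not normalized; 67.2% of them are whole within 0.001. Strand was not used here, so overlapping genes and near-identical copies are uncertain. No label names a batch or date.

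Estimated counts were rounded, filtered with filterByExpr (10985 genes) and scaled by TMM. edgeR 4.0.16 in R 4.3.3 fitted its quasi-likelihood model to 8 group means over all 28 libraries, with Benjamini-Hochberg adjustment over all genes and calls at an adjusted p under 0.05. CPM in the text use TMM library sizes. TPM were tested with limma 3.58.1 on log2(TPM + 1), without TMM scaling. DESeq2 1.42.0, other filters, samples and scalings, the animal as a block, and a GC correction (added after seeing the data) were alternatives. Scripts were tested on simulated data. The labels give an animal identifier to each library, and same-numbered libraries carry the same one, so the numbers pair samples; correlations of paired deviations were 0.0376, 0.182 and 0.218 in KO animals and 0.186 to 0.313 in WT animals. Counting error alone does not cover the spread between animals.

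The members and the 26 pathway and 10 cell type lists were chosen with earlier results of these data known. Named were 10 fixed genes (Kdm6b, Kdm6a, Odc1, Srm, Foxp3, Ctla4, Il2ra, Il9, Dusp2, Rnf187), then up to 12 called genes in each direction with a mean of at least 5 CPM in a group and per-animal effects that do not overlap, filled to 5 by unadjusted p, and up to 3 members of each list with the smallest adjusted p; the other called genes complete the 27. Names matched GENCODE M21 for 20837 of 20891 genes.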

Additional observations from a re-analysis of the deposited data

Results flagged for a closer look

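In 5 of 163 gene and group combinations of 4 libraries (3.1%), 1 library stood apart from the other 3 by Dixon's criterion, a rate that chance alone would set at about 5%. Rnf187 was at 16.03 CPM in ctrl WT replicate 4, against 29.7 to 31.4 CPM in the other ctrl WT libraries. Tgfbr2, a TGF-beta receptor gene, was at 31.7 CPM in the same library, against 61.5 to 67.6 CPM. Lta, the lymphotoxin alpha gene, was at 499 CPM in ctrl WT replicate 1, against 601 to 616 CPM. Ccna2, the cyclin A gene of S and G2 phase, was at 231 CPM in ctrl WT replicate 2, against 287 to 289 CPM. Xcl1, a chemokine gene, was at 0.297 CPM in DFMO WT replicate 2, against 6.92 to 7.41 CPM. Of the 5 values 2 came from replicate 4. All 5 were the lowest of their group, 4 of them in ctrl WT libraries.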

How the results depend on the processing

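The interaction count of 27 was 31 with DESeq2 size factors, 19 on TPM and 28 with the GC correction. It was 103 by DESeq2 (24 higher, 79 lower; 26 shared), 146 with no filter on low counts (33 higher, 113 lower; 26 shared) and 4 with the 14 iTreg libraries fitted alone (Ifngr1, Lsm4, Sac3d1 and Iscu; fewer residual degrees of freedom). With the animal as replicate block it was 57, and 72 (18 higher, 54 lower) with the block and the GC correction. Leaving out a library or an animal gave 12 to 106. The counts between genotypes were 291 with DFMO and 310 in ctrl for the 14 libraries alone, and 248 to 733 and 270 to 731 when a library or animal was left out. No blocked value could be had for them, since each animal has 1 genotype. The DFMO counts stayed within 1.5 times, with or without the block. The 3-way count of 0 was 3 by DESeq2, 11 with no filter, 1 on TPM and 0 to 2 with a library or animal left out. Kdm6a, near 0, changed sign with DESeq2 size factors (-0.012), in the 14 libraries (-0.011), with the block and GC correction (-0.079), with the GC correction alone (-0.085), and between -0.11 and 0.10 on leaving out libraries; Odc1 ran between -0.10 and 0.15. No called gene changed sign in any alternative, and Ifngr1 and Sac3d1 kept their call in all. On TPM 8 of the 27 kept it: Ifngr1, Rps2, B3gnt2, Sac3d1, Plbd2, Nenf, Polr2g and Bcl11b. The cause of these differences was not tested. The libraries held 2312481 to 4753768 counts, and 3 KO animals limit the precision.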

Other observations

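Large estimates without a call were found among genes of low level, of which Inhba and Ch25h were named after their values were seen. Inhba, which encodes a subunit of activin A, a ligand of the TGF-beta family, had 5.05, 1.35 and 7.07 CPM in DFMO KO libraries and 0 in all 3 ctrl KO libraries. It had 7.67, 6.53, 8.42 and 4.52 CPM in DFMO WT libraries and 6.05, 2.77, 1.58 and 4.18 CPM in ctrl WT libraries. The ctrl KO libraries were the only ones at 0. The interaction of Inhba did not pass by edgeR (adjusted p = 0.0726) and passed by DESeq2 (adjusted p = 0.00682). Its fitted fold change depends on the prior count and is not given.

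Ch25h, which encodes cholesterol 25-hydroxylase, had 0, 1.13 and 0.615 CPM in DFMO KO libraries and 0.362, 0.823 and 0.669 CPM in ctrl KO libraries. It had 25.3, 6.24, 23.5 and 13.2 CPM in DFMO WT libraries and 1.21, 0.198, 0.789 and 0.348 CPM in ctrl WT libraries. The DFMO WT libraries lay above all 10 others. The interaction did not pass by edgeR (adjusted p = 0.252) and passed on TPM by limma (adjusted p = 0.0114).

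Tasp1 had 87.9, 79.4 and 72.8 CPM in DFMO KO libraries and 53.2, 55.1 and 51.5 CPM in ctrl KO libraries. It had 34.5, 41.9, 36.1 and 44.8 CPM in DFMO WT libraries and 39.9, 39.5, 38.2 and 43.9 CPM in ctrl WT libraries. Every KO library lay above every WT library both with DFMO (KO against WT 1.03 ± 0.10, edgeR adjusted p = 1.48e-07) and in ctrl (0.40 ± 0.11, edgeR adjusted p = 0.0257). The interaction of Tasp1, not called in the main fit, passed by DESeq2 (adjusted p = 0.0265) and on TPM by limma (adjusted p = 0.0387).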
